A study of Mus musculus with 10 samples.

Results

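The nuclear genes of the mitochondrial respiratory chain were examined in the liver of mice given an inhibitor of PAI-1. Members were the rows of the count table whose symbol begins with Ndufa, Ndufb, Ndufc, Ndufs, Ndufv, Uqcr, Atp5 or Cox followed by 4 to 8, together with Sdha, Sdhb, Sdhc and Sdhd. This rule used no measured value and took 92 of the 24421 genes listed. By complex, the members were 36 genes of complex I, 7 assembly factors of complex I (Ndufaf), 4 genes of complex II, 8 of complex III, 20 of complex IV and 17 of complex V. Ndufa4 and Ndufa4l2 were placed with complex IV, in which their products are found. Atp5sl and Atp5s were kept with complex V by symbol, although GENCODE names Atp5sl as Dmac2, a factor in the assembly of complex I.

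The samples were livers of 10 male C57BL/6 mice, fed freely and 21 weeks old by the labels (the age in the study's methods differs from this), with 1 library of poly(A) RNA from each mouse. The Chow group (n = 5, mice 41 to 45) ate standard chow. The TM5614 group (n = 5, mice 46 to 50) ate the same kind of chow with TM5614 mixed in, for 10 days, to a dose of 20 mg/kg/day. TM5614 is an oral compound that inhibits PAI-1, the inhibitor of the plasminogen activators, and both groups were wild type. The samples were whole liver, so fewer cells of a type and less RNA per cell cannot be told apart in any value given here.

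The respiratory chain passes electrons from NADH (complex I) and succinate (complex II) through ubiquinone to complex III, through cytochrome c to complex IV and on to oxygen, and the proton gradient that complexes I, III and IV build drives ATP synthase, complex V. A small set of core subunits carries the redox centres and the catalytic sites, and many accessory subunits surround them. Most subunits are encoded in the nucleus and a few in mitochondrial DNA, and several subunits of complex IV have a form found in most tissues, liver included, and another found mainly in heart and skeletal muscle. The mitochondrially encoded subunits were not analysed here.

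Promoters of the complex IV isoforms are shown first, because each pair has a form abundant in these libraries and a rare one. RefSeq windows from 250 bases before to 50 bases after the start site were found for 73 of the 92 members (78 windows). Matches on either strand to 4 motifs are in capitals: GCATGCGC, part of the site of NRF1, CCGGAAG, a site of ETS factors such as GABP, CAGCTG, an E-box, and TATAAA.
Cox8a (GRCm38.p6, chr19:7217567-7217866, minus strand): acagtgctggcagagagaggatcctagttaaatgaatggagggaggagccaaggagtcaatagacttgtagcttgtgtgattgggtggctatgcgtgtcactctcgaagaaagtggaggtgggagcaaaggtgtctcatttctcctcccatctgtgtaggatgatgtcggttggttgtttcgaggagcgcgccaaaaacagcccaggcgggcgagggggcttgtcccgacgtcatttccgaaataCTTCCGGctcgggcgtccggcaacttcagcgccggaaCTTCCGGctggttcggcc
Cox8b (GRCm38.p6, chr7:140900397-140900696, minus strand): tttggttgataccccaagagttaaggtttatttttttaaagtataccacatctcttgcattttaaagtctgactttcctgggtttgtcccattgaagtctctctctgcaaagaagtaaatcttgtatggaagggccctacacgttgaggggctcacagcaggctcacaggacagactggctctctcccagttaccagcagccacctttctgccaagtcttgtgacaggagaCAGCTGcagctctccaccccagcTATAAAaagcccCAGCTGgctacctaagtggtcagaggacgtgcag
Cox7a2 (GRCm38.p6, chr9:79759804-79760103, minus strand): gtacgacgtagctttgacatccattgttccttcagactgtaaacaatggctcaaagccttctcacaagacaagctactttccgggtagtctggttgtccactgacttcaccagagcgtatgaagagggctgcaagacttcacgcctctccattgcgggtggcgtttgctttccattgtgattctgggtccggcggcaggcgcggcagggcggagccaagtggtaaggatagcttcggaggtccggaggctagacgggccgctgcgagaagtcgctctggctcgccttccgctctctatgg
Cox7a1 (GRCm38.p6, chr7:30183921-30184220, plus strand): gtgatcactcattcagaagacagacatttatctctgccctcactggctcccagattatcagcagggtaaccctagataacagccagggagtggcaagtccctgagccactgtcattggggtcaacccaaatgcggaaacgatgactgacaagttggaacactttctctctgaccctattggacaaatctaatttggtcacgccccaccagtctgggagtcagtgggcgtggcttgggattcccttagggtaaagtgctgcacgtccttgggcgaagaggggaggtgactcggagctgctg

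The Cox8a window held 2 matches to CCGGAAG and 19 CG dinucleotides. The window of Cox8b, its muscle counterpart, held 2 matches to CAGCTG, 1 match to TATAAA and 2 CG dinucleotides. The Cox7a2 and Cox7a1 windows held none of the 4 motifs and differed in CG dinucleotides, 20 against 7. Over all members, GCATGCGC was in 12 of 78 windows (15.4%), against 2.71% of all 32851 windows in the table. CCGGAAG was in 17 (21.8%, against 8.86%), CAGCTG in 6 (7.69%, against 16.3%) and TATAAA in 8 (10.3%, against 13.6%). The member windows had a median of 19 CG dinucleotides and all windows had 7. These matches describe letters in a window and not bound sites.

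Most members were strongly expressed. Of the 92, 82 had enough counts to be tested. Their median level was 144 FPKM, against 6.01 FPKM over all 11092 genes tested, and 66 of the 82 were among the highest 10% of tested genes. FPKM are counts per gene length and library, so a comparison between genes depends on the length taken. Levels per length differed widely within most complexes and little within complex II. Within complex II, Sdhb, the iron-sulphur subunit, was highest at 198 ± 48.3 FPKM (SD, n = 10 libraries), and Sdhc, a membrane anchor, was lowest at 153 ± 13.7 FPKM, a ratio of 1.29. Leaving out Chow replicate 2, the library described below as standing apart, gave 184 ± 23.4 FPKM for Sdhb (SD, n = 9) and 151 ± 12.5 FPKM for Sdhc. The other members, Sdhd (membrane anchor, 181 FPKM) and Sdha (flavoprotein, 175 FPKM), lay between them. Sdhb, Sdhd and Sdha differed by less than the spread of Sdhb between libraries, and Sdhc was below Sdha by more than the SD of either. The gene length in the FPKM values, relative to the principal transcript and to the median gene, was 0.372 times as long for Sdhc. It was 0.940 to 1.04 times for Sdha, Sdhb and Sdhd. The ratio of 1.29 and the narrow range of complex II therefore depend on the length taken.

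In complex I the highest member was the accessory subunit Ndufb9 at 338 ± 116 FPKM (SD, n = 10) and the lowest tested was the accessory subunit Ndufa11 at 15.0 ± 7.10 FPKM, a ratio of 22.5. Ndufab1, at 15.3 ± 3.74 FPKM, was within the spread of Ndufa11 and was the lower of the pair in the Chow group (14.7 against 17.3 FPKM). The gene length in the FPKM values, relative to the principal transcript and to the median gene, was 4.88 times as long for Ndufa11 and 0.230 times for Ndufab1, so their order depends on the length taken. The assembly factors had a median of 8.75 FPKM, against 110 FPKM for the tested subunits of the complex, and ranged from Ndufaf1 at 21.9 ± 0.958 FPKM to Ndufaf5 at 1.30 ± 0.302 FPKM. In complex III, Uqcrq, an accessory subunit, was highest at 440 ± 189 FPKM over all libraries. On the same relative scale the length taken was 0.328 times as long for Uqcrq and 0.998 times for Uqcrh, so the rank of Uqcrq depends on it. Uqcrh, the hinge protein, was higher than Uqcrq in the TM5614 group (392 against 359 FPKM), and without Chow replicate 2 they lay within their spread (382 ± 60.7 and 384 ± 71.7 FPKM, n = 9). In the same complex Uqcrc2, a core protein, was lowest at 130 ± 5.16 FPKM. Complex IV was led by Cox4i1, the form of subunit 4 found in most tissues, at 667 ± 242 FPKM, and by Ndufa4 at 643 ± 123 FPKM, which overlapped in their spread. Their order turned without Chow replicate 2, with 595 ± 88.8 FPKM for Cox4i1 and 610 ± 66.8 FPKM for Ndufa4 (SD, n = 9). The lowest tested there was Cox7a2l, linked to supercomplexes of the chain, at 52.3 ± 9.09 FPKM. In complex V, Atp5b, the catalytic beta subunit, had 664 ± 48.2 FPKM and Atp5s had 6.68 ± 1.14 FPKM.

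The 10 members that were not tested were Atp5l, Cox4i2, Cox6a2, Cox6b2, Cox7a1, Cox7b2, Cox8b, Cox8c, Ndufa4l2 and Ndufs5. Cox7b2, Cox8c and Ndufs5 were listed at 0 in all 10 libraries. Ndufs5 encodes a subunit of complex I that every cell with mitochondria is thought to use, and 24.1% of the 75-base windows of its transcript also occur in another gene. The globin genes Hba-a1, Hba-a2, Hbb-bs, Hbb-bt and Hbb-b1 were likewise listed at 0 in every library, so a 0 in this table was not read as absence of the transcript. Atp5l, the g subunit of ATP synthase, had 3 to 31 counts, and 76.0% of its windows occur in 10 other genes. Among tested members, Atp5g2 (86.9%), Atp5o (83.8%) and Cox7c (50.4%) shared at least as many windows as not with other genes, and their counts are uncertain for that reason.

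The tissue isoforms were read in every library. Cox8a, the form of subunit 8 found in liver, had 127 to 272 CPM (counts scaled to a common library size with TMM factors) in the Chow group and 111 to 143 CPM in the TM5614 group. Cox8b, the muscle form (chromosome 7, 140898945 to 140900446, minus strand), had 0, 1, 0, 0 and 6 counts in Chow replicates 1 to 5 and 1, 30, 2, 0 and 0 counts in TM5614 replicates 1 to 5. Cox6a2, the muscle form of subunit 6a, had 0, 0, 0, 1 and 1 counts in the Chow group and 0, 59, 1, 0 and 0 in the TM5614 group. Both muscle forms were therefore highest in TM5614 replicate 2, and in the other 9 libraries neither exceeded 6 counts.

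Cox7a1, the muscle form of subunit 7a, had 4, 28, 5, 7 and 9 counts in the Chow group and 3, 24, 4, 12 and 8 in the TM5614 group. It was high in Chow replicate 2 as well as in TM5614 replicate 2, and the groups overlapped. Cox4i2, induced by low oxygen in other tissues, had at most 3 counts in any library. Cox6b2, a testis form, had 1 to 10 counts across the libraries of both groups. Ndufa4l2, a paralog of Ndufa4 that responds to low oxygen, had 6 to 20 counts in the Chow group and 3 to 11 in the TM5614 group. The abundant partners Cox4i1, Cox6a1, Cox6b1, Cox7a2, Cox8a and Ndufa4 had mean levels of 199 to 667 FPKM, and the rarer forms had means of 0.107 to 3.18 FPKM.

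**Figure D1:**
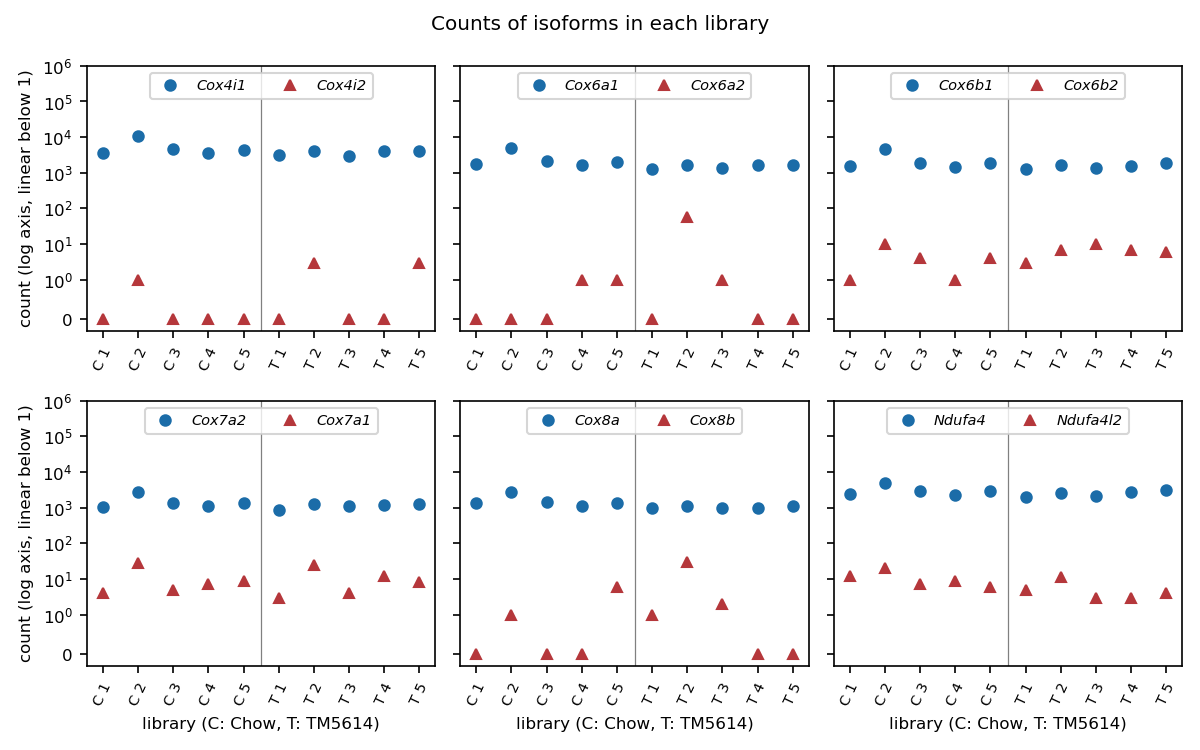
Counts of 6 isoform or paralog pairs in each of the 10 libraries (C, Chow; T, TM5614), on a log axis that is linear below 1; circles are the form abundant in liver and triangles the other form. Cox6a2 and Cox8b stand out in TM5614 replicate 2 with 59 and 30 counts, and Cox7a1 in Chow replicate 2 and TM5614 replicate 2 with 28 and 24 counts.

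TM5614 replicate 2, in which Cox6a2 and Cox8b were highest, also carried other skeletal muscle transcripts. The 15 genes of a skeletal muscle list summed to 4866 CPM in TM5614 replicate 2 and 95.9 CPM in TM5614 replicate 3, with none of them at 0 in either. They summed to 16.9 to 24.0 CPM in the other 3 TM5614 libraries and 14.6 to 37.4 CPM in the Chow libraries. Acta1, skeletal muscle actin, had 9330 counts in TM5614 replicate 2 and 194 in TM5614 replicate 3. Chow replicate 2, where Cox7a1 had 28 counts, had only 14.6 CPM for the list. Of the 15 genes, Myh4, Myh1, Myh2, Tnnt3, Tnnc2, Pvalb and Mb were at 0 in all Chow libraries. Their part in the values of members that muscle and liver share was not tested.

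Other marker lists were summed in the same way. The hepatocyte list (10 of 11 genes listed, Alb the most abundant) summed to 120143 to 138915 CPM in the Chow group and 107479 to 126047 CPM in the TM5614 group, so the liver label held. The brown adipocyte list of 7 genes, which includes Cox7a1 and Cox8b, summed to 3.88 to 24.2 CPM in the Chow group and 6.74 to 79.8 CPM in the TM5614 group, and Ucp1, its defining gene, was at 0 in 8 of 10 libraries. Ucp1 had 12 counts in Chow replicate 5 and 2 in TM5614 replicate 3. Cidea, also on that list, had 17 counts in Chow replicate 5 and 24 in TM5614 replicate 5. The Kupffer cell list (9 genes) ranged from 82.3 to 261 CPM in the Chow group and from 81.8 to 175 CPM in the TM5614 group. The endothelial list (7 genes) ranged from 80.7 to 143 CPM and from 83.9 to 143 CPM, the stellate cell list (8 genes, Des among them) from 165 to 286 CPM and from 266 to 558 CPM, and the cholangiocyte list (6 genes) from 33.1 to 50.5 CPM and from 27.3 to 74.4 CPM. The erythroid list (6 genes) ranged from 39.0 to 88.4 CPM and from 34.7 to 54.4 CPM, all of it from Alas2.

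Total counts ranged from 6398335 to 10874955 per library, and 1 library stood apart. A trend on GC content and transcript length was fitted to the genes' deviations from their median levels. It accounted for 50.9% of their variance in Chow replicate 2 (mouse 42), against 0.898% to 13.4% in the other 9 libraries. Because most members are short (median principal transcript of 977 bases, against 3014 over all genes tested), the counts of calls and the medians below are given with and without this library, as are the single genes whose direction or call it changes.

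Chow replicate 2 differed from the other Chow libraries in most members. Its CPM was above the mean of the other 4 in 74 of the 82 tested members, by a median of 0.83 on the log2 scale, and was more than 2 times that mean in 25. It was the highest of the 10 libraries for 68 members and the lowest for 4. The spread within the group followed: the median coefficient of variation of the members was 32.4% over all 5 Chow libraries, 12.7% over the other 4 and 12.2% over the 5 TM5614 libraries. Over all tested genes these values were 23.9%, 12.6% and 13.4%.

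The members were not raised evenly in this library. Uqcr11, a small accessory subunit of complex III, had 266 CPM in Chow replicate 2 and 90.0 to 132 CPM in the other 4 Chow libraries. Ndufs1, the largest core subunit of complex I, went the other way, with 64.3 CPM in Chow replicate 2 and 140 to 151 CPM in the others. Sdha, with 425 CPM against 519 to 527 CPM, was also lower there. Across the 82 members the deviation of Chow replicate 2 correlated with GC content (Pearson r = 0.55) and inversely with log2 transcript length (r = -0.48), which are descriptions across genes of 1 library. With the members ordered by GC content and split into 3 bins, the median deviation was 0.38 in the lowest bin, 0.85 in the middle bin and 1.09 in the highest, all on the log2 scale.

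**Figure D2:**
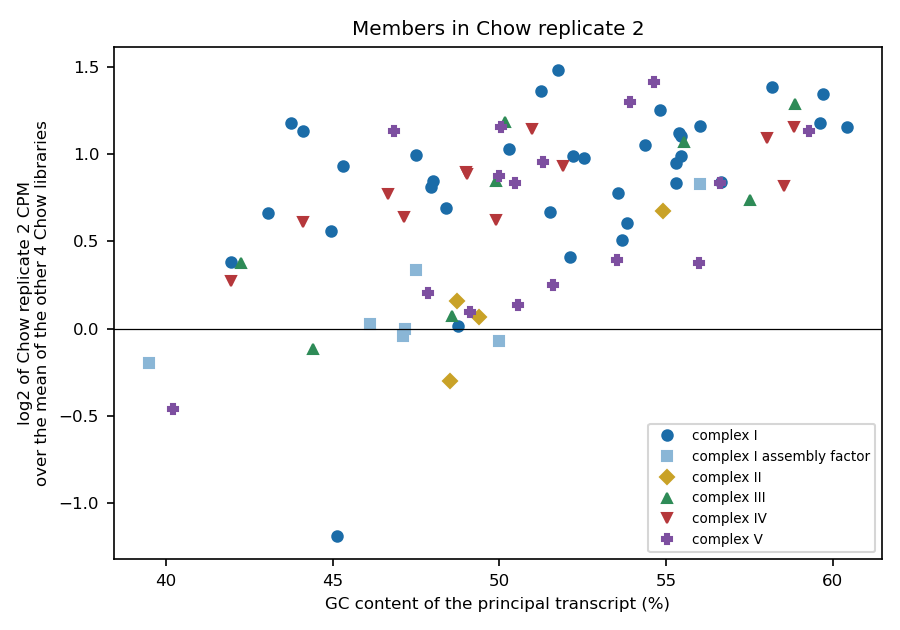
Each point is 1 of the 82 tested members: on the x axis the GC content of its principal transcript in percent, on the y axis the log2 ratio of its CPM in Chow replicate 2 to the mean CPM of the other 4 Chow libraries; colours and shapes mark the complexes. Points rise from a median of 0.38 in the lowest of 3 bins of GC content to 1.09 in the highest, and Ndufs1 is the lowest point at -1.19.

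**Figure D3:**
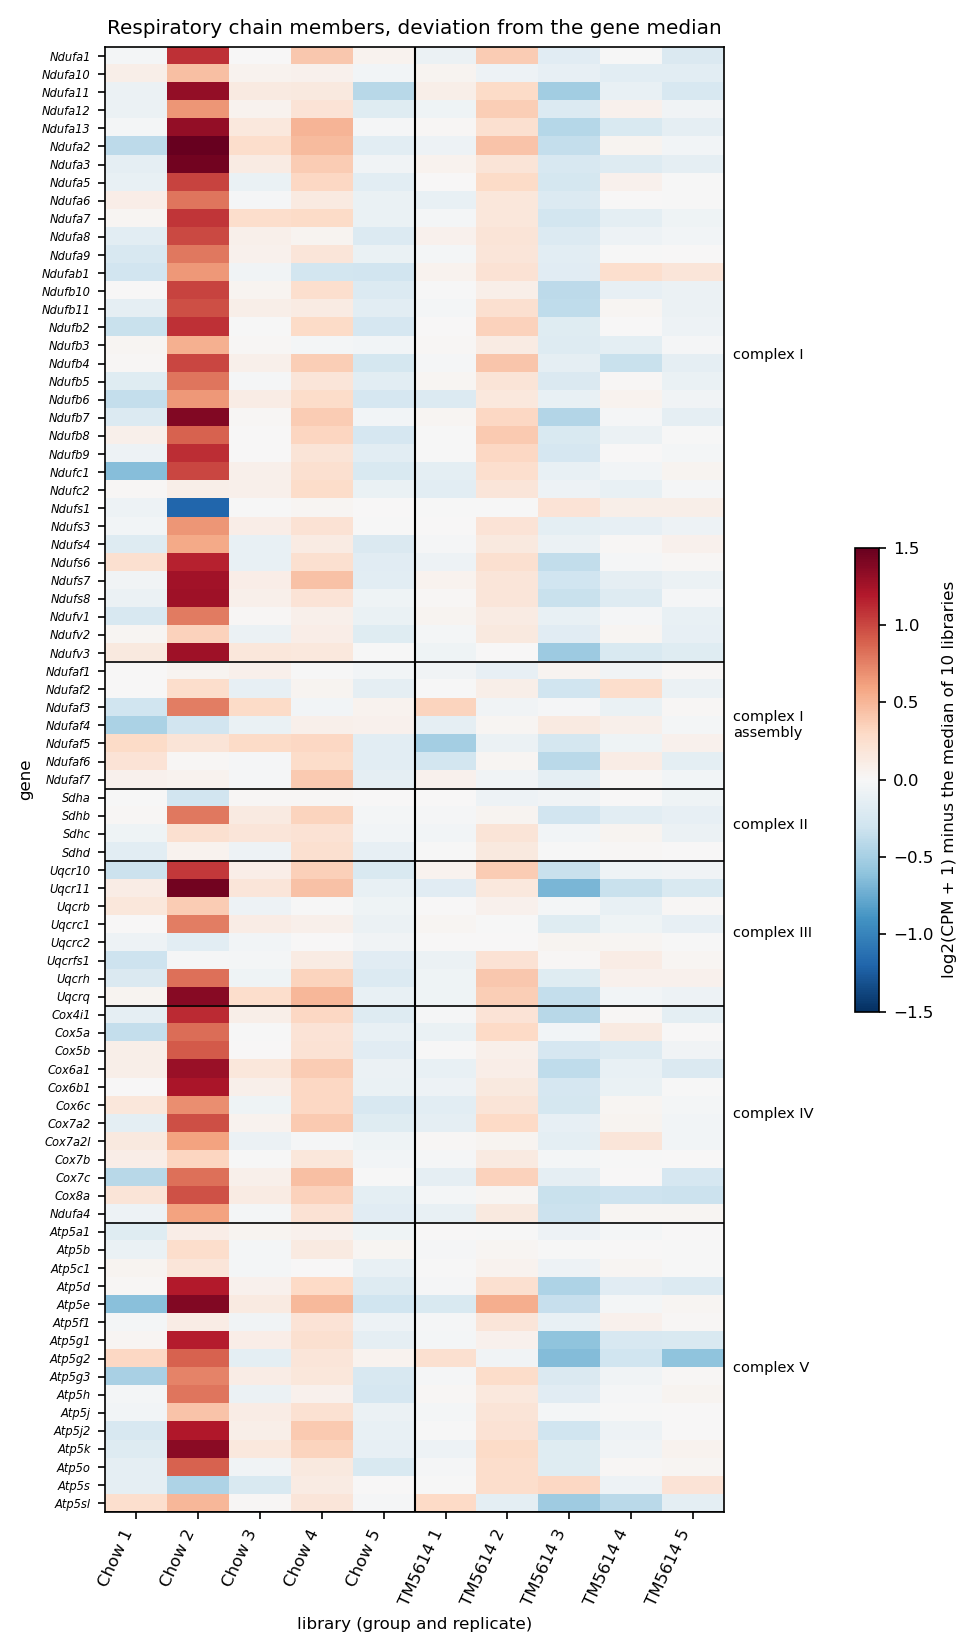
Heat map of log2(CPM + 1) minus the gene's median over the 10 libraries, for 81 of the 82 tested members (rows, ordered by complex) in each library (columns). The Chow replicate 2 column is red for most members, with a median of 0.80 over all 82, while the medians of the other columns lie between -0.19 in TM5614 replicate 3 and 0.21 in Chow replicate 4.

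The first comparison asked whether TM5614 altered the mRNA of the respiratory chain. No member was called in TM5614 against Chow: 0 of 82 passed an adjusted p of 0.05 in edgeR's quasi-likelihood test with all 10 libraries, where 4.50% of the 11092 genes tested were called. At an unadjusted p under 0.05 there were 11 of 82 members, all with estimates below 0, where 20.4% of all genes tested had such a p. DESeq2 also called 0 members (8.11% of all genes), and limma-voom with sample quality weights called 3 (12.5% of all genes). The estimates were below 0 (lower in TM5614) for 74 of the 82 members, with a median log2 fold change of -0.23, against a median of 0.01 over all genes tested. The CPM ranges of the groups overlapped for all 82 members, while 8.93% of all genes tested had ranges that did not overlap.

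Without Chow replicate 2 the members lay close to 0. edgeR again called 0 of 82, where 9.24% of 11162 genes tested were called, and 6 members had an unadjusted p under 0.05, 5 of them with estimates below 0, against 23.6% of all genes. DESeq2 called 1 member (11.3% of all genes) and limma-voom called 3 (11.5% of all genes). The median log2 fold change was -0.04, with 51 estimates below 0 and 31 above (25 members changed sign between the fits), against a median of 0.00451 over all genes tested. The count was also taken without TM5614 replicate 2, the library with muscle transcripts: leaving out both libraries, the median was -0.11 and 3 members passed, Uqcr11, Ndufv3 and Cox8a, where 11.1% of all genes were called.

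The precision of these estimates differed between the fits. With all libraries the 95% interval lay within a 2-fold change in either direction for 68 of 82 members, and the median distance from the estimate to an interval bound was 0.43 on the log2 scale. Without Chow replicate 2 it lay within 2-fold for all 82, and the median distance was 0.25. In that fit the interval lay within 0.5 log2 units of 0 for 68 members, and the lowest and highest bounds of any member were -0.90 and 0.62. Larger changes than these bounds were therefore outside the 95% intervals in these 9 libraries.

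**Figure D4:**
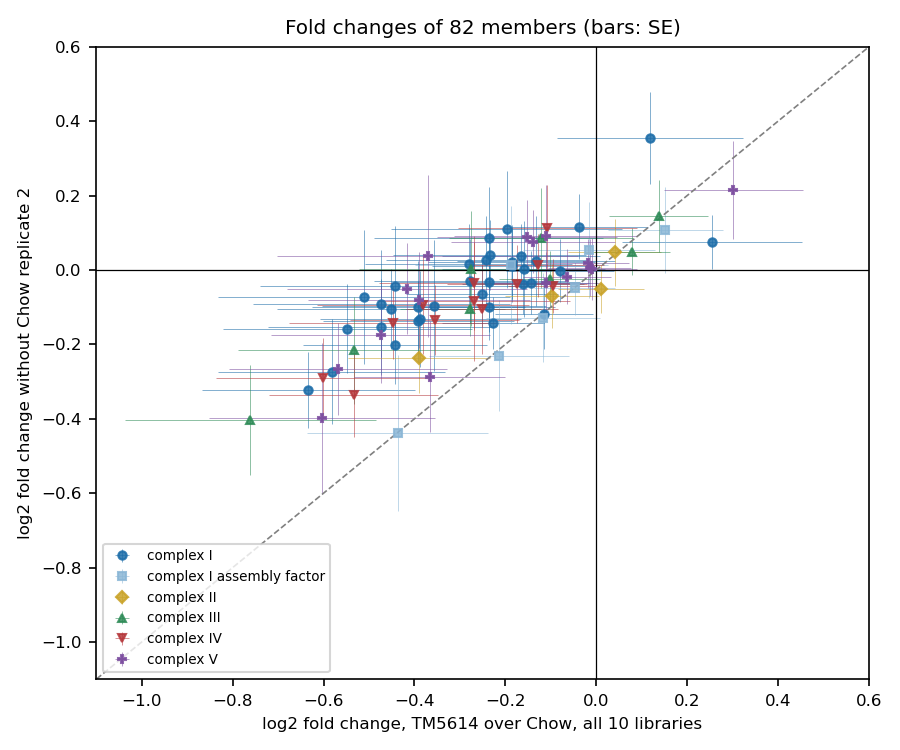
Log2 fold change of each of the 82 tested members, TM5614 over Chow, with all 10 libraries (x axis) and without Chow replicate 2 (y axis); bars are standard errors, colours and shapes mark the complexes and the dashed line marks equal values. Most points lie left of 0 and above the dashed line, with a median of -0.23 on the x axis and -0.04 on the y axis.

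By complex, the summed level of complex I was 2999, 5754, 3231, 3643 and 2896 CPM in Chow replicates 1 to 5 and 3100, 3590, 2712, 3056 and 3024 CPM in TM5614 replicates 1 to 5. Chow replicate 2 lay above all other libraries and the groups otherwise overlapped. The median log2 fold change of its 35 tested subunits was -0.24 with all libraries and -0.04 without Chow replicate 2. The core subunits Ndufv1 (log2 fold change 0.04, SE 0.08) and Ndufs1 (0.08, SE 0.07), named after their values were seen, were near 0 in the fit without that library and had -0.17 and 0.26 with it. Other core subunits had estimates below 0 in both fits. Without that library Ndufs3 had -0.10, Ndufs7 -0.15, Ndufs8 -0.10 and Ndufv2 -0.0019. With it they had -0.24, -0.47, -0.45 and -0.08 in the same order.

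Ndufv3 (chromosome 17, 31520115 to 31531331, plus strand), an accessory subunit of the NADH-binding arm, had the lowest adjusted p of any member without Chow replicate 2. It had 95.8, 211, 97.8, 97.0 and 86.0 CPM in Chow replicates 1 to 5 and 83.0, 87.2, 58.8, 73.9 and 75.9 CPM in TM5614 replicates 1 to 5. Every TM5614 library but replicate 2 was below every Chow library, and replicate 2 was above Chow replicate 5. The log2 fold change was -0.63 (SE 0.23, adjusted p = 0.158 in edgeR) with all libraries and -0.32 (SE 0.10, adjusted p = 0.0742 in edgeR) without Chow replicate 2. Ndufv3, Uqcr11 and Cox8a lay on either side of the threshold depending on the test, and are singled out for that reason after their values were seen.

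Ndufab1, the mitochondrial acyl carrier protein that is also a subunit of complex I, had the highest estimate without Chow replicate 2. The value was 0.35 (SE 0.12, adjusted p = 0.101 in edgeR), with 9.57 to 11.5 CPM in those 4 Chow libraries and 10.4 to 14.4 CPM in the TM5614 libraries, and Chow replicate 2 alone had 19.2 CPM. This was the 1 member with an unadjusted p under 0.05 and an estimate above 0. The 7 assembly factors had a median log2 fold change of -0.12 with all libraries and -0.05 without Chow replicate 2. Ndufaf5, a hydroxylase of a complex I subunit, had 4.15 ± 0.646 CPM (SD, n = 5) under Chow and 3.03 ± 0.594 CPM (SD, n = 5) under TM5614, a log2 fold change of -0.44 in both fits (edgeR adjusted p = 0.241 and 0.232).

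Complex II had a median coefficient of variation of 10.9% over the Chow libraries, against 32.4% for all members. Without Chow replicate 2 the gap was small, with 10.95% against 12.7% for all members and 11.1% for complex V. In the TM5614 group complex II had 6.24%, against 12.2% for all members. A low spread in that group was not particular to complex II. Among core subunits of other complexes, Uqcrc2 had 1.38%, Atp5b 1.48% and Atp5a1 2.36%, while Ndufs7 had 13.2% and Ndufs8 14.0%. The 4 genes of complex II summed to 1170 ± 70.5 CPM (SD, n = 5) under Chow, 1157 ± 74.7 CPM without Chow replicate 2 (n = 4), and 1110 ± 35.2 CPM (SD, n = 5) under TM5614. The log2 fold changes without Chow replicate 2 were -0.05 for Sdha, -0.24 for Sdhb, -0.07 for Sdhc and 0.05 for Sdhd, and with all libraries 0.01, -0.39, -0.10 and 0.04 in the same order, so the sign of Sdha turned. Sdhb had 203, 347, 219, 253 and 196 CPM in Chow replicates 1 to 5 and 197, 205, 164, 180 and 184 CPM in TM5614 replicates 1 to 5. It was the 1 gene of the complex with an unadjusted p under 0.05 in both fits (edgeR adjusted p = 0.188 with all libraries and 0.148 without Chow replicate 2).

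In complex III the 8 genes summed to 1613 ± 417 CPM (SD, n = 5) in the Chow group, 1437 ± 156 CPM without Chow replicate 2 (n = 4), and 1414 ± 128 CPM (SD, n = 5) under TM5614. The core proteins Uqcrc1 and Uqcrc2 had log2 fold changes of -0.10 and 0.05 without Chow replicate 2, and Uqcrfs1, the Rieske iron-sulphur protein, had 0.15 (with all libraries -0.28, 0.08 and 0.14). Uqcr11 (chromosome 10, 80402997 to 80406830, minus strand) had 105, 266, 110, 132 and 90.0 CPM in Chow replicates 1 to 5 and 86.0, 109, 60.0, 77.1 and 82.8 CPM in TM5614 replicates 1 to 5. All TM5614 values but that of replicate 2 were below the lowest Chow value. The log2 fold change was -0.76 (SE 0.28, adjusted p = 0.150 in edgeR) with all libraries, the lowest of any member, and -0.40 (SE 0.15, adjusted p = 0.121 in edgeR) without Chow replicate 2.

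Complex IV, the oxidase, had estimates below 0 for all 12 tested members with all libraries (median -0.27) and for 10 of 12 without Chow replicate 2 (median -0.09). Cox8a (chromosome 19, 7215153 to 7217616, minus strand), whose promoter is shown above, had 160, 272, 152, 179 and 127 CPM in Chow replicates 1 to 5 and 137, 143, 111, 113 and 112 CPM in TM5614 replicates 1 to 5. The groups overlapped through Chow replicate 5 and TM5614 replicates 1 and 2. The log2 fold change was -0.53 (SE 0.19, adjusted p = 0.136 in edgeR) with all libraries and -0.34 (SE 0.11, adjusted p = 0.0868 in edgeR) without Chow replicate 2. Cox6a1, the liver partner of Cox6a2, had -0.60 (edgeR adjusted p = 0.180) and -0.29 (edgeR adjusted p = 0.125).

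The other abundant complex IV isoforms were nearer 0. Without Chow replicate 2, Cox4i1 had a log2 fold change of -0.09 (95% interval -0.38 to 0.19), Cox6b1 had -0.14 (-0.36 to 0.07), Cox7a2 had -0.03 (-0.31 to 0.24), Cox7b had -0.04 (-0.20 to 0.11), Cox7a2l had 0.01 (-0.17 to 0.19) and Ndufa4 had -0.04 (-0.27 to 0.19). With all libraries the estimate for Cox4i1 was -0.38 (-0.89 to 0.13), and Cox7a2l had -0.13, so the sign of Cox7a2l turned with that library. No interval of these 6 genes lay wholly on 1 side of 0 in either fit.

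In complex V the catalytic core had estimates near 0. Atp5b had 1293 ± 130 CPM (SD, n = 5) under Chow and 1237 ± 18.3 CPM (SD, n = 5) under TM5614, a log2 fold change of -0.06 (SE 0.10, adjusted p = 0.725 in edgeR) and -0.02 without Chow replicate 2 (SE 0.07, adjusted p = 0.920 in edgeR), and Atp5a1, the alpha subunit, had 1087 ± 83.6 and 1076 ± 25.4 CPM, with log2 fold changes of -0.01 and 0.0068 in the 2 fits. The 3 genes of the c subunit of the rotor encode the same mature protein. Atp5g3 was the most abundant of them at 557 FPKM, against 60.7 FPKM for Atp5g1 and 14.1 FPKM for Atp5g2. For Atp5g1 the length in these values was 0.184 times as long, relative to the principal transcript and to the median gene. Its place above Atp5g2 therefore depends on the length taken. The log2 fold changes of Atp5g3, Atp5g1 and Atp5g2 without Chow replicate 2 were 0.09, -0.27 and -0.40 (edgeR adjusted p = 0.745, 0.220 and 0.263). With all libraries they were -0.11, -0.57 and -0.60. Atp5s, among the few members with an estimate above 0 in both fits, had 0.30 (SE 0.15, adjusted p = 0.291 in edgeR) and 0.22 (SE 0.13, adjusted p = 0.366 in edgeR).

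A list of core subunits was compared with all other members except the Ndufaf assembly factors. The second group is not accessory subunits alone, since the c subunit genes and Atp5sl are in it. The 14 core subunits listed, Uqcrc1 and Uqcrc2 among them, had a median log2 fold change of -0.11 with all libraries and -0.03 without Chow replicate 2. The 71 other subunits, 61 of them tested, had -0.25 and -0.04. The core genes summed to 4342 to 5572 CPM in the Chow group and 4466 to 4793 CPM in the TM5614 group, and the other subunits to 6956 to 14193 CPM and 6544 to 8910 CPM. The highest Chow value of both sums was that of Chow replicate 2, and without it the Chow libraries reached 5026 and 9151 CPM.

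Genes around the chain were read from lists of electron carriers and other inputs, assembly factors, regulators, and enzymes of the citrate cycle. With 4.50% of all tested genes called, 4 of the 23 tested electron carriers and inputs were called with all libraries, 1 higher and 3 lower in TM5614. In each of the 2 edgeR fits 6 of the 23 had an unadjusted p under 0.05. Over all genes tested, 20.4% had such a p with all libraries and 23.6% without Chow replicate 2. Prodh, proline dehydrogenase, which passes electrons from proline to ubiquinone, had 167, 277, 224, 187 and 192 CPM in Chow replicates 1 to 5 and 124, 105, 101, 87.7 and 103 CPM in TM5614 replicates 1 to 5. Every TM5614 library was below every Chow library, and the log2 fold change was -1.01 (SE 0.15, adjusted p = 0.00244 in edgeR). Sqrdl, sulphide quinone reductase, fell as well, from 204 ± 20.6 CPM (SD, n = 5) to 138 ± 12.8 CPM (SD, n = 5), a log2 fold change of -0.57 (SE 0.11, adjusted p = 0.0113 in edgeR), also with no overlap. The log2 fold changes without Chow replicate 2 were -0.89 for Prodh and -0.55 for Sqrdl. These 2 genes passed with each of the 10 libraries left out in turn, at edgeR adjusted p of up to 0.0118 for Prodh and 0.0462 for Sqrdl.

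Etfdh, which passes electrons from fatty acid and amino acid oxidation to ubiquinone, rose from 336 ± 68.6 CPM (SD, n = 5) to 525 ± 57.4 CPM (SD, n = 5). The log2 fold change was 0.64 (SE 0.15, adjusted p = 0.0331 in edgeR), and the lowest TM5614 value, 428 CPM, was above the highest Chow value, 409 CPM. Its partners Etfa and Etfb, the subunits of the flavoprotein that feeds it, did not pass (log2 fold changes 0.20 and -0.16, edgeR adjusted p = 0.316 and 0.715). Their values without Chow replicate 2 were 0.12 and 0.14 (edgeR adjusted p = 0.322 and 0.458), so the sign of Etfb turned. Atpif1, the inhibitory factor of ATP synthase, fell from 17.4 ± 3.96 CPM (SD, n = 5) to 10.9 ± 1.44 CPM (SD, n = 5), a log2 fold change of -0.69 (SE 0.16, adjusted p = 0.0362 in edgeR). Cycs, cytochrome c, passed only in the fit without Chow replicate 2, at 0.46 (SE 0.11, adjusted p = 0.0242 in edgeR). With all libraries Cycs had 0.40 (edgeR adjusted p = 0.113), and Cyc1, the cytochrome c1 of complex III, which the symbol rule does not take, had -0.28 (edgeR adjusted p = 0.393) and, without Chow replicate 2, -0.08 (edgeR adjusted p = 0.675).

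Of the 14 citrate cycle enzymes tested, 2 rose and 0 fell with all libraries, where 4.50% of all genes were called, and 3 rose without Chow replicate 2, where 9.24% were. An unadjusted p under 0.05 in edgeR was found for 6 and 5 of the 14, against 20.4% and 23.6% of all genes. Idh3a, the catalytic subunit of NAD-dependent isocitrate dehydrogenase, rose from 31.8 ± 6.41 CPM (SD, n = 5) to 48.8 ± 3.27 CPM (SD, n = 5), a log2 fold change of 0.62 (SE 0.15, adjusted p = 0.0362 in edgeR), and the groups did not overlap. Fh1, fumarase, rose by 0.66 on the log2 scale (SE 0.16, adjusted p = 0.0389 in edgeR), although Chow replicate 4 with 307 CPM lay above TM5614 replicate 4 with 298 CPM. Suclg1, a subunit of succinate-CoA ligase, passed in the fit without Chow replicate 2 (0.34, SE 0.08, edgeR adjusted p = 0.0155) and had 0.29 with all libraries (edgeR adjusted p = 0.154). The median log2 fold change of the list was 0.13 with all libraries and 0.11 without Chow replicate 2.

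Of the 20 regulators tested, 3 had an unadjusted p under 0.05 in edgeR with all libraries, where 20.4% of all genes had such a p. In that fit 1 was called, where 4.50% of all genes were called. This was Ppargc1b, a coactivator of mitochondrial genes, which fell from 20.3 ± 6.18 CPM (SD, n = 5) to 11.4 ± 1.63 CPM (SD, n = 5). Its log2 fold change was -0.83 (SE 0.21, adjusted p = 0.0417 in edgeR). Its relative Ppargc1a had 0.14 (edgeR adjusted p = 0.826), Nrf1 had -0.12 (edgeR adjusted p = 0.740), Gabpa had 0.31 (edgeR adjusted p = 0.571) and Tfam, the packaging factor of mitochondrial DNA, had 0.19 (edgeR adjusted p = 0.366). None of these 4 passed without Chow replicate 2 either, and Ppargc1a had -0.08, its sign turned, Nrf1 -0.05, Gabpa 0.07 and Tfam 0.11 (edgeR adjusted p = 0.866, 0.908, 0.743 and 0.456). Mterf4, which acts in mitochondrial ribosome assembly, passed without Chow replicate 2 at 0.43 (SE 0.10, adjusted p = 0.0239 in edgeR) and had 0.18 with all libraries (edgeR adjusted p = 0.640). Of the 40 assembly factors tested, edgeR called 0 with all libraries, where 4.50% of all genes were called. In that fit 6 had an unadjusted p under 0.05, where 20.4% of all genes had such a p. DESeq2 called 1 (8.11% of all genes) and limma-voom 3 (12.5% of all genes). Without Chow replicate 2, where 9.24% of all genes were called, edgeR called 1. This was Sco2, a copper chaperone of complex IV, at 0.81 (SE 0.19, adjusted p = 0.0220 in edgeR). With all libraries Sco2 had 0.45 (edgeR adjusted p = 0.406). Among the genes called with all libraries, Prodh and Sqrdl aside, 5 lost their call in most of the 10 fits that leave out 1 library, at edgeR adjusted p of up to 0.122. All 5 passed without Chow replicate 2, with log2 fold changes of 0.53 for Etfdh, -0.54 for Atpif1, 0.49 for Idh3a, 0.60 for Fh1 and -0.67 for Ppargc1b. With no filter on low counts and all libraries, the 5 missed the threshold at edgeR adjusted p of 0.0505 for Etfdh, 0.0515 for Idh3a, 0.0523 for Atpif1, 0.0535 for Fh1 and 0.0557 for Ppargc1b. Beyond that, Etfdh passed without Chow replicate 1 or TM5614 replicate 2, Ppargc1b without Chow replicate 3 or 5, Atpif1 and Idh3a without Chow replicate 5, and Fh1 without Chow replicate 4, and each missed the threshold without any other library. GC content and length moved some of these values too. With both corrected and all libraries kept, Atpif1 (edgeR adjusted p = 0.0516) and Fh1 (0.0593) missed the threshold, and Cycs had a log2 fold change of 0.05. In the same correction without Chow replicate 2, Cycs (edgeR adjusted p = 0.0701), Suclg1 (0.0586) and Fh1 (0.0625) missed it, while Sco2 passed in both.

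**Figure D5:**
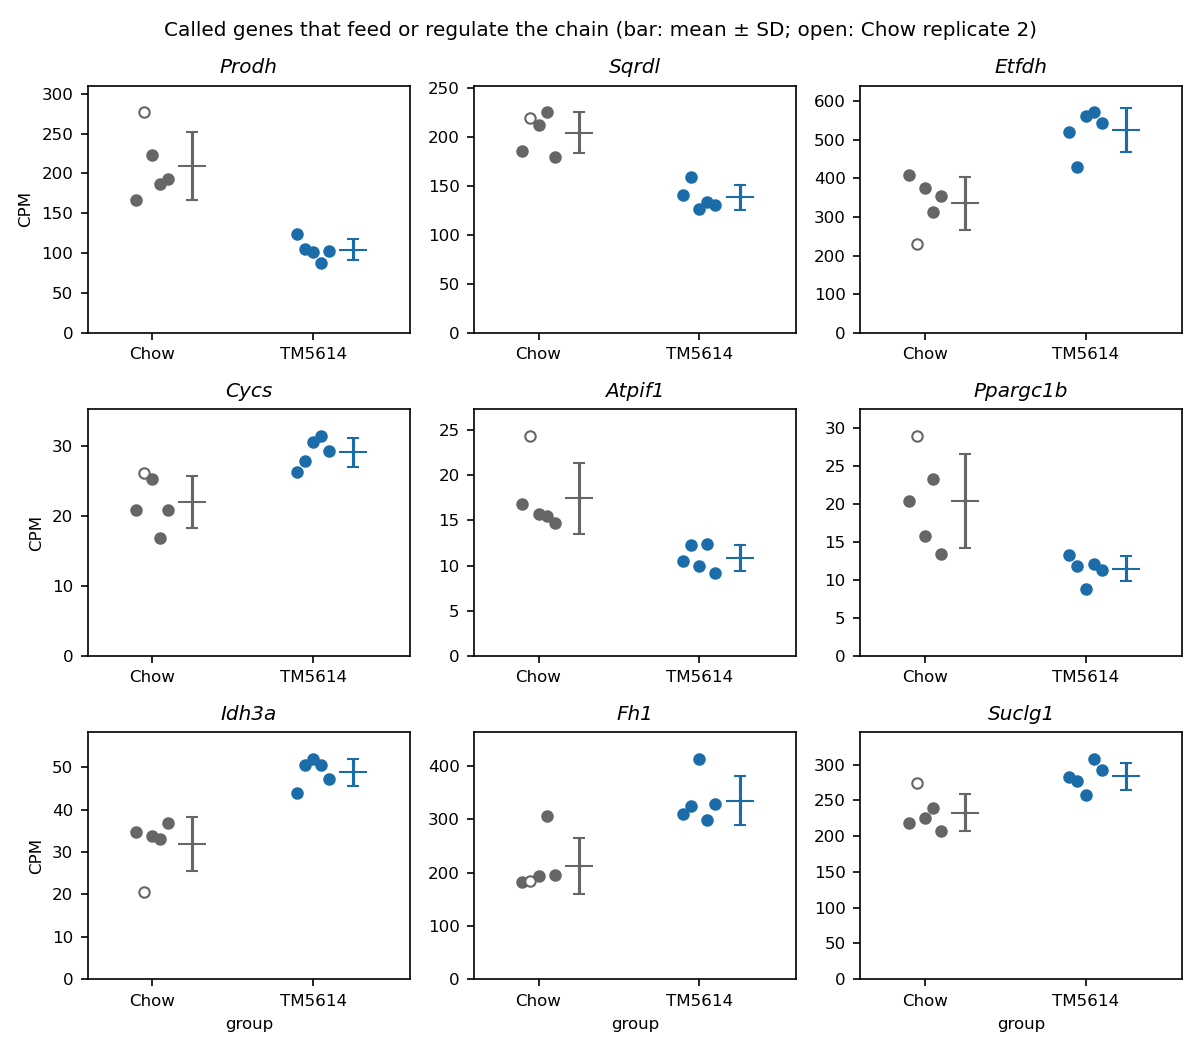
CPM of 9 genes called in at least 1 of the 2 fits, by group, with axes from 0; points are libraries (open, Chow replicate 2) and the bars beside them are the mean ± SD of 5 libraries. Prodh, Sqrdl, Atpif1 and Ppargc1b lie lower in TM5614 and Etfdh, Cycs, Idh3a, Fh1 and Suclg1 higher, with ranges that overlap for Fh1 and Suclg1.

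Ribosomal protein genes, another large set, also had their highest summed level in Chow replicate 2. The 77 mitochondrial ribosomal protein genes had 0 calls in both edgeR fits, where 4.50% and 9.24% of all genes were called. DESeq2 and limma-voom also called 0. In the edgeR fits 7 and 8 of these genes had an unadjusted p under 0.05, against 20.4% and 23.6% of all genes. Their median log2 fold change was -0.15 with all libraries and -0.00289 without Chow replicate 2. Of 87 cytosolic genes tested with ribosomal protein symbols, 1 was called in both edgeR fits, against 4.50% and 9.24% of all genes. It was Rps6kb2, which encodes a kinase. The medians of the 87 were -0.31 and -0.05.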

How the data were processed

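Hepatic poly(A) RNA of 10 mice was sequenced as single-end 75-base reads per the study's methods, and the reads were aligned with STAR to mm10 and processed through RNA Express. The counting tool, versions, annotation and use of strand are not given in the sources used here, and the labels also name HOMER with no role. Raw counts by gene symbol are what the authors deposited, with totals of 6398335 to 10874955 per library. The authors also deposited FPKM values, which proved to be those counts divided by gene length and a library factor, and which were used here only to compare levels between genes. The deposited tables of regularised values and of the authors' own fold changes and p-values were not used.

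Columns were matched to samples by mouse number. No libraries of a group were taken as duplicates, since counts of the closest pair gave a chi-square of 8.00 per degree of freedom. Genes were kept with filterByExpr, scaled with TMM and tested with edgeR 4.0.16 (quasi-likelihood, two-sided, Benjamini-Hochberg over all tested genes, threshold 0.05) in R 4.3.3, with and without Chow replicate 2. The study used DESeq2, run here as version 1.42.0 as an alternative, as was limma 3.58.1 (voom with sample quality weights). Other alternatives were RLE factors, library totals, other filters, the replicate number as a block, a spline on GC content and length with 5 degrees of freedom, each library left out, and leaving out both Chow replicate 2 and TM5614 replicate 2. That last one was chosen once the data had been seen. The edgeR, DESeq2, limma-voom and GC-corrected fits were checked on simulated counts. These had the same dispersion for all genes and no trend on GC content or length. The check therefore does not cover a library such as Chow replicate 2. CPM used TMM sizes, log2 CPM in the heat map added 1, and the pairing check and the GC and length trend used a prior count of 2.

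Annotation was matched by symbol to GENCODE M21 on GRCm38, the assembly mm10 names (98.5% of rows, all 92 members). Lengths and GC content are those of the principal transcript, and shared sequence is the share of its 75-base windows found in transcripts of other genes. The members, lists and naming rule were chosen with earlier results of these data known. Named were the members called, the highest and lowest member of each complex by FPKM, all tissue isoforms, all untested members and up to 6 called genes of each list. Other genes named were chosen after their values were seen. The values of 1 tested member are not reported here singly, and it stays in every count and sum. Intervals cover the spread of these libraries. The labels give no batch.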

Additional observations from a re-analysis of the deposited data

Results flagged for a closer look

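Values of 32 measures were examined in each group of 5 libraries, 64 groups in all, and 13 had a library whose gap to the nearest other was over Dixon's 95% critical share of the group's range. Chance gives such a gap in about 1 in 20 groups, or 3.20 of 64. Of the 13, 8 were in Chow replicate 2 and 3 in TM5614 replicate 2.

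Chow replicate 2 was high for complex I as a sum, with 5754 CPM against 2896 to 3643 CPM in the other Chow libraries, and for these genes. Ndufb9 had 430 CPM there (177 to 226 in the others), Cox4i1 1015 (407 to 577), Ndufa11 92.0 (26.9 to 40.1) and Cox6a1 493 (187.5 to 260.5). Cox6b1 had 443 CPM (176 to 235), Atp5g1 113 (44.7 to 58.2) and Cox7a1 2.70 (0.485 to 1.11). The trend on GC content and transcript length accounted for 50.9% of the variance of the genes' deviations from their median levels in this library. With that trend taken out of every library the log2 fold changes, TM5614 over Chow, were 0.047 for Ndufb9, -0.00065 for Cox4i1 and 0.019 for Ndufa11. They were -0.28, -0.38 and -0.44 before. For Cox6a1, Cox6b1 and Atp5g1 they were -0.16, -0.23 and -0.89, from -0.60, -0.45 and -0.57 before. The trend took 4715 bases for Atp5g1. The length in its FPKM values was 0.184 times as long, relative to the median gene. The part of this difference in the -0.89 was not tested.

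TM5614 replicate 2 was high for Cox6a2, with 7.66 CPM against 0 to 0.115 CPM in the other TM5614 libraries, and for Cox8b, with 3.89 CPM against 0 to 0.229 CPM. It was also high for Cox7b, with 187 CPM against 166 to 170 CPM. The skeletal muscle list was highest in the same library, at 4866 CPM, and its part in the Cox7b value was not tested. Chow replicate 5 was high for Cox8b, with 0.552 CPM, equal to 6 counts, against 0 to 0.0965 CPM, and was low for Ndufaf5, with 3.04 CPM against 4.15 to 4.59 CPM. Ucp1, of the brown adipocyte list, had 12 counts in Chow replicate 5 and 0 in TM5614 replicate 2. Any part of brown adipocytes in these Cox8b values was not tested.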

How the results depend on the processing

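With all libraries the count of members called was 0 in edgeR under every alternative run, each library left out included, and 3 with limma-voom. Without Chow replicate 2 it was 3 with limma-voom, 3 with the replicate block (9.51% of all genes called), 3 with TM5614 replicate 2 also left out, 1 with DESeq2, 1 with GC content and length corrected (8.94% of all genes), and 0 in the others; the genes were Uqcr11, Ndufv3 and Cox8a where 3 passed, and Ndufv3 where 1 did. The replicate block, tried although correlations of same-numbered libraries (0.03 to 0.32) did not show pairing, called 0 members with all libraries and moved their median log2 fold change to -0.19; replicate 2 was the 1 number whose libraries correlated best with each other. That median ranged from -0.32 without Chow replicate 5 to -0.04 without Chow replicate 2, and was -0.10 with GC content and length corrected (all tested genes -0.05). Over all genes the calls moved from 499 to 900 with DESeq2, 1386 with limma-voom, 789 with the GC and length correction, 1031 without Chow replicate 2, 293 without Chow replicate 3, 331, 235 and 259 without TM5614 replicates 1, 3 and 4. Without Chow replicate 2, calls were 405 higher and 626 lower, and 521 and 482 with library totals alone.

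Signs turned for the members that follow, none of them called. All were named by the rule except Ndufab1, which was named after its values were seen. Over all 82 tested members, 25 changed sign without Chow replicate 2. With GC content and length corrected the log2 fold change was 0.047 for Ndufb9, 0.019 for Ndufa11, -0.070 for Uqcrc2, 0.039 for Atp5g3 and -0.17 for Ndufab1. With limma-voom it was 0.017 for Cox7a2l and 0.043 for Atp5g3, and with library totals alone 0.0017 for Ndufaf1. Leaving out 1 library gave -0.38 to 0.016 for Ndufb9, -0.18 to 0.013 for Cox7a2l and -0.25 to 0.091 for Atp5g3, the highest value without Chow replicate 2 each time. The GC and length correction took 3479 bases for Ndufab1 and 545 for Ndufa11. The lengths in their FPKM values were 0.230 and 4.88 times as long, relative to the median gene. The cause of the turned signs was not tested.

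With 5 mice a group, the median distance from a member's estimate to its interval bound was 0.43 log2 units with all libraries and 0.25 without Chow replicate 2, which limits what could be resolved for a typical member. Reads shared with other genes limit Atp5g2, Atp5o, Cox7c and Atp5l, and a listed 0, as for Ndufs5, may not mean absence.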
